A study of Rattus norvegicus with 6 samples.

Results

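The genes described here encode the adaptors and first kinases of Toll-like receptor signalling. They were taken by name from the table of expression values, and 7 of the 8 names were found among its 22536 genes: Myd88, Irak1, Irak4, Traf6, Tab1, Tab2 and Map3k7. Ticam1, which encodes the adaptor TRIF, was not analysed here. RNA was sequenced from 3 male rats with painful diabetic neuropathy (PDN), the pain that can accompany nerve damage in diabetes, and from 3 male control rats. The labels name the tissue sensory neuron and the series title names the dorsal root ganglion, where the cell bodies of sensory neurons lie beside the spinal cord. The strain and age of the rats, the way diabetes was brought about and the treatment of the controls are not stated in the labels used here. The bile acid named in the series title, hyodeoxycholic acid, is not part of any sample label.

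Toll-like receptors sense microbial products and molecules released by damaged cells, and their cytoplasmic TIR domains recruit adaptor proteins. MyD88, the adaptor of most of these receptors and of the interleukin-1 receptor family, gathers IRAK4 and then IRAK1 into a complex, while TRIF serves a separate branch. IRAK1 engages TRAF6, a ubiquitin ligase, and the ubiquitin chains it builds are bound by TAB2. TAB2 and TAB1 are partners of TAK1, the kinase encoded by Map3k7, which phosphorylates the IKK complex of the NF-kB pathway and the kinases that activate p38 and JNK. In sensory ganglia both neurons and non-neuronal cells are known to carry parts of this system, and bulk RNA does not separate them.

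Promoter sequences are shown for 3 of the genes because they span the levels and the variability described below: Irak1, the most abundant of the 7, Myd88, the receptor-proximal adaptor, and Map3k7, the most variable. RefSeq promoters in build GRCr8 were matched for 5 of the 7 genes, and each sequence below is the 250 bases before the annotated start of the gene. The Irak1 window is chrX:156929826-156930075 and the Myd88 window chr8:127956231-127956480, both on the minus strand, and the Map3k7 window is chr5:51154102-51154351 on the plus strand. Capitals mark GC boxes (GGGCGG) and half-sites of the cyclic AMP response element (TGACGT), found on either strand, and no matches overlapped.

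Irak1: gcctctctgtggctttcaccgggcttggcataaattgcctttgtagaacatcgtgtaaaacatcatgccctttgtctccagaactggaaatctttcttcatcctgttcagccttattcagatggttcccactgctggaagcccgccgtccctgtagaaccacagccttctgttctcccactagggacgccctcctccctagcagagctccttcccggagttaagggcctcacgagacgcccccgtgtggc
Myd88: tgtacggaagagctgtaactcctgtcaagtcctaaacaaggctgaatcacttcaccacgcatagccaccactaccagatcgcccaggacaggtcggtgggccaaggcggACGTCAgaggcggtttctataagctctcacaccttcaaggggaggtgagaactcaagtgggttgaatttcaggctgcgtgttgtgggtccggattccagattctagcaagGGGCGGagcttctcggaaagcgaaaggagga
Map3k7: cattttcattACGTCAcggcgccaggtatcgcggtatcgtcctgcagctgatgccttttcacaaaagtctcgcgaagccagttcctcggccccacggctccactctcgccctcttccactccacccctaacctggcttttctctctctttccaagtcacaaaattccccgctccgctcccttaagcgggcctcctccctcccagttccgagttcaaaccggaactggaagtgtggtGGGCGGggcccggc

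The Myd88 and Map3k7 windows each held 1 GC box and 1 half-site of the cyclic AMP response element, and the Irak1 window held neither. Among 33465 rat promoter windows of the same length, 30.5% held a GC box and 6.95% held that half-site. Neither a TATA box (TATAAA, in 12.9% of all windows), a CCAAT box (in 34.0%) nor a kappaB element (in 3.54%) was matched on either strand in the windows of the 5 genes. The Tab2 window was the richest in CpG, with 39 CpG dinucleotides and 75.2% G or C, against 18 in Map3k7, 12 in Myd88, 12 in Irak4 and 9 in Irak1, where the median of all windows was 5. These matches describe letters in a window and not bound factors.

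The libraries were alike overall. Across genes, whose values are not independent of each other, log2(FPKM + 1) correlated between libraries with a Pearson r of 0.977 to 0.984 within groups and 0.976 to 0.985 between them. FPKM is the number of fragments scaled to transcript length and library size. All 14 sensory neuron markers reached an FPKM of at least 1 in all 6 libraries, but so did all 8 satellite glia markers and all 8 Schwann cell markers, so RNA of glia was present beside that of neurons. PDN 3 and control 2 held the most RNA of skeletal muscle, with Acta1, the actin of that tissue, at 68.8 FPKM in PDN 3 and 193 FPKM in control 2, against 13.3 FPKM in PDN 1 and 1.11 to 1.35 FPKM in the other 3 libraries. The summed level of 10 macrophage markers was 27.6 to 37.6 FPKM in PDN and 37.2 to 51.5 FPKM in control libraries. These markers did not all differ in the same direction. Aif1, Csf1r, Cx3cr1 and Adgre1 were lower in every PDN library than in every control library, a pattern of 6.24% of all tested genes. The groups overlapped for the other macrophage markers found. Of these, C1qb, Mrc1 and Cd163 were highest in PDN 1, at 5.24, 6.14 and 1.63 FPKM. Mrc1 and Cd163 in PDN 3, at 2.71 and 0.233 FPKM, lay below all controls. The markers named here were chosen after their values were seen. The sum of 6 fibroblast markers was 271 to 288 FPKM in PDN and 306 to 341 FPKM in control libraries. The groups overlapped for Dcn, the largest part of that sum, and for Col1a1, Pdgfra and Dpt. Col1a1 was highest of all in PDN 3, at 80.5 FPKM. Col3a1 and Lum were lower in every PDN library than in every control library. Red blood cell genes summed to 86.7 to 206 FPKM in PDN and 176 to 281 FPKM in control libraries, and no marker found in these lists was at 0 in all 6 libraries. In such bulk samples fewer cells of a type and less RNA per cell cannot be told apart, and the part of these differences in the values below was not tested.

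The 7 genes spanned a 6.91-fold range of mean FPKM, and their order was nearly the same in every library. Irak1 stood highest, Tab2 followed, then Tab1, Traf6 and Map3k7, with Myd88 and Irak4 at the bottom. Irak1 exceeded Tab2, Tab2 exceeded Tab1, Tab1 exceeded Traf6, Traf6 exceeded Map3k7 and Map3k7 exceeded Myd88 in 6 of 6 libraries. The ranges of Tab1 and Traf6 overlapped across libraries, and so did those of Map3k7 and Myd88. Myd88 and Irak4 could not be ordered, since Myd88 was the higher in only 3 of 6 libraries and their means differed by a ratio of 1.01. The mean of Irak1 lay above 82.5% of all genes in the table and that of Irak4 above 51.0%.

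**Figure D1:**
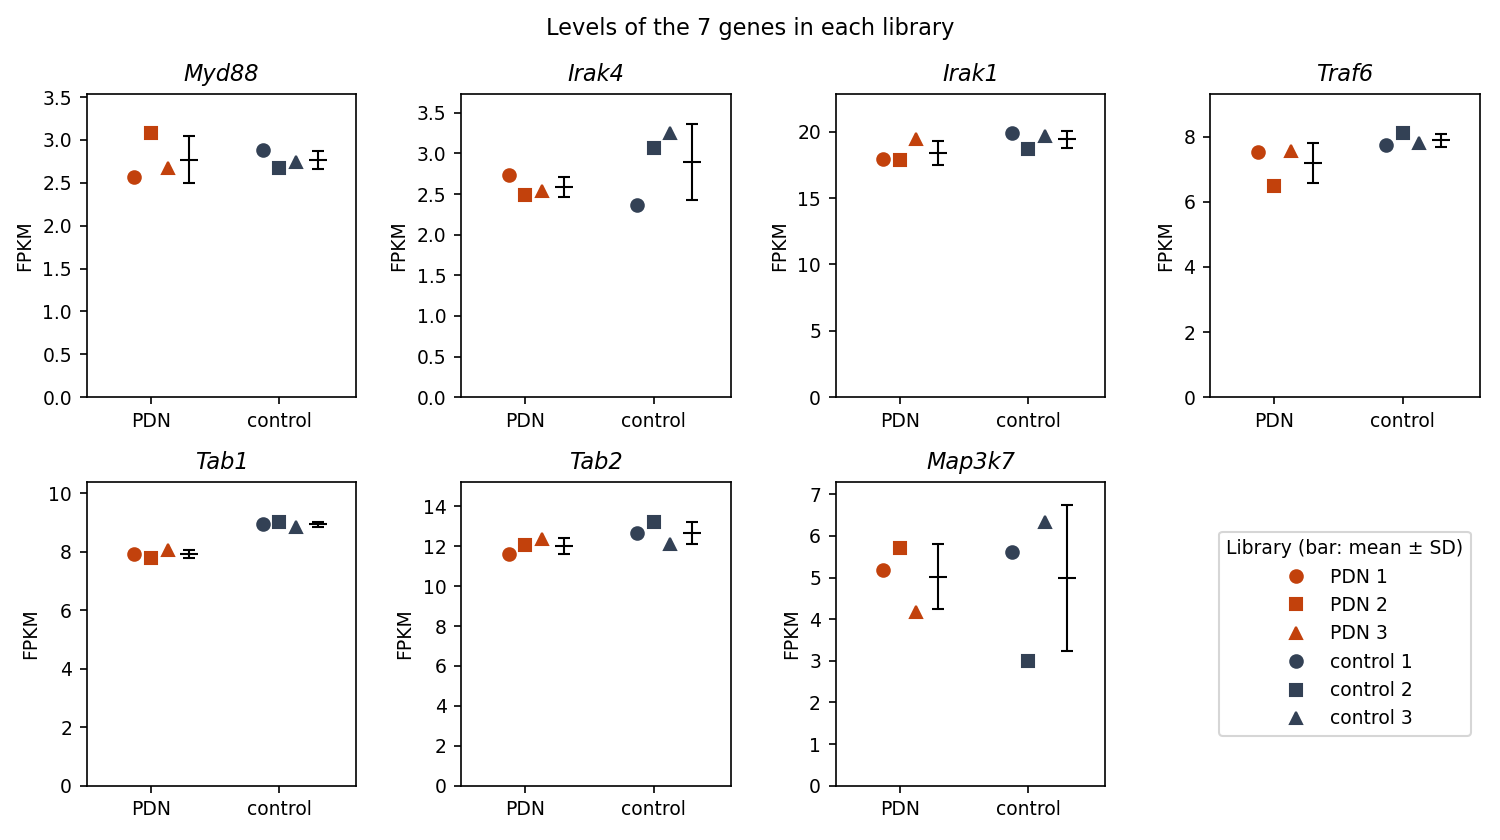
FPKM of the 7 genes in each library, with PDN left of control and a separate vertical axis from 0 for each gene. Each marker is 1 library and the bars give mean ± SD (n = 3 each). Tab1 and Traf6 were lower in every PDN library than in every control library, and Map3k7 varied most.

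The comparison of PDN with control tissue asked whether this receptor-proximal machinery differs in its RNA in painful neuropathy. None of the 7 genes passed an adjusted p of 0.05 in limma, and 0 of all 13282 tested genes did (0% called). An unadjusted p under 0.05 was found for 627 genes (4.72%), of which 38.8% were higher in PDN, a share of 50.5% after scaling by median-of-ratios and of 48.2% after scaling by the upper quartile. Among the 7 genes, 1 had an unadjusted p under 0.05, Tab1, and it was lower in PDN, as were 2.89% of all tested genes at that threshold. Estimates were lower in PDN for 6 of the 7 genes, against 56.6% of all tested genes. With either of those scalings Myd88 had a positive estimate and 5 of the 7 were lower, against 48.5% of all tested genes with median-of-ratios and 50.1% with the upper quartile. The median log2 fold change of the 7 genes was -0.07, beside -0.016 over all tested genes. Fold changes are differences of log2(FPKM + 1), a scale on which genes of low level appear to change less than they do. The labels do not say whether the rats of a group came from separate litters or were processed on separate days. The limma p-values set the group difference against a spread within groups that is drawn toward that of tested genes of like level. They cannot account for litter or day.

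Myd88 (ENSRNOG00000013634, chromosome 8, 128022473 to 128026841 in the file's coordinates, whose build is not stated in the labels or headers) was at 2.56, 3.08 and 2.67 FPKM in the PDN libraries and at 2.89, 2.68 and 2.74 FPKM in the control libraries. The groups overlapped, and the PDN libraries held both the highest and the lowest value. The means were 2.77 ± 0.272 FPKM in PDN and 2.77 ± 0.108 FPKM in controls (SD, n = 3 each). The difference, PDN minus control, was -0.0011 ± 0.092 (SE) on the log2 scale (95% interval -0.22 to 0.21), with a limma adjusted p of 1.00. The interval holds differences of up to about that size in either direction, so such differences are not excluded by these libraries. It is not a limit of detection, since it is not adjusted for the number of tested genes.

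Irak4, the kinase that starts phosphorylation in the MyD88 complex, maps to chromosome 7 (ENSRNOG00000005965, 135803698 to 135832652). It was at 2.73, 2.49 and 2.54 FPKM in PDN libraries and at 2.36, 3.06 and 3.25 FPKM in control libraries. The PDN values lay within the control range, and control 1 held the lowest value of all. The difference, PDN minus control, was -0.11 ± 0.11 (SE) on the log2 scale (95% interval -0.37 to 0.15), with a limma adjusted p of 0.999. Without control 1 the estimate was -0.21 and without control 3 it was -0.043, and neither passed the threshold.

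Irak1, the kinase recruited next, lies on the X chromosome (ENSRNOG00000060869, 156716604 to 156725977). Its level was 17.9, 17.9 and 19.5 FPKM in PDN libraries and 19.9, 18.7 and 19.7 FPKM in control libraries. PDN 3 fell inside the control range and PDN 1 and PDN 2 lay below it. Irak1 differed by -0.07 ± 0.067 (SE) on the log2 scale (95% interval -0.23 to 0.08), with a limma adjusted p of 0.999. Without PDN 3 the estimate was -0.11, and without both PDN 3 and control 2 it was -0.14, with limma adjusted p-values of 0.952 and 1.00.

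Traf6, the ubiquitin ligase downstream of the IRAK kinases, maps to chromosome 3 (ENSRNOG00000004639, 91252829 to 91271607). It was at 7.54, 6.49 and 7.57 FPKM in PDN libraries and at 7.75, 8.11 and 7.80 FPKM in control libraries. All 3 PDN values lay below all 3 control values. PDN 2 lay farther from the rest than PDN 3 lay from control 1. The means were 7.20 ± 0.613 FPKM in PDN and 7.89 ± 0.195 FPKM in controls (SD, n = 3 each). Traf6 differed by -0.12 ± 0.082 (SE) on the log2 scale (95% interval -0.31 to 0.073), with a limma adjusted p of 0.999. Without PDN 2 the estimate was -0.055.

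Tab1, an activating partner of TAK1, maps to chromosome 7 (ENSRNOG00000017285, 121350965 to 121382088). It was at 7.93, 7.80 and 8.05 FPKM in PDN libraries and at 8.93, 9.03 and 8.84 FPKM in control libraries. The groups did not overlap, and the libraries of each group lay close together, with SDs of 0.125 FPKM in PDN and 0.0922 FPKM in controls. The difference, PDN minus control, was -0.15 ± 0.065 (SE) on the log2 scale (95% interval -0.31 to -0.0019), an unadjusted p of 0.0478 and a limma adjusted p of 0.999, so the difference did not pass. The spread within groups was unusually small for this gene: among 5325 tested genes with a mean FPKM between 0.5 and 2 times that of Tab1, 99.8% had a larger within-group SD. On the log2 scale the within-group SD of Tab1 was 0.017. The limma p-values rest on a spread drawn toward that of other genes, so this small SD sets them only in part. The estimate stayed between -0.171 and -0.134 in all the alternatives run, and Tab1 did not pass the adjusted threshold in any of them. Scaled by median-of-ratios its unadjusted p was 0.0751, and scaled by the upper quartile 0.0698.

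Of the 7 genes, Traf6 and Tab1 had all 3 PDN values below all 3 control values, beside 6.24% of all tested genes. Groups that did not overlap in either direction made up 9.93% of all tested genes.

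Tab2, the partner that binds ubiquitin chains, maps to chromosome 1 (ENSRNOG00000016054, 1999596 to 2073896). It was at 11.6, 12.1 and 12.4 FPKM in PDN libraries and at 12.6, 13.2 and 12.1 FPKM in control libraries. The groups overlapped, since PDN 3 exceeded control 3. The difference, PDN minus control, was -0.07 ± 0.068 (SE) on the log2 scale (95% interval -0.23 to 0.089), with a limma adjusted p of 0.999. Without control 2 the estimate was -0.041 and without PDN 1 it was -0.047.

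Map3k7, which encodes TAK1, maps to chromosome 5 (ENSRNOG00000005724, 47186558 to 47244416). It was at 5.18, 5.70 and 4.17 FPKM in PDN libraries and at 5.62, 3.00 and 6.34 FPKM in control libraries. The control group held both extremes, which differed by a factor of 2.12, while no other gene of the 7 exceeded a factor of 1.38 over all 6 libraries. For Map3k7 the difference, PDN minus control, was 0.05 ± 0.23 (SE) on the log2 scale (95% interval -0.49 to 0.58), with a limma adjusted p of 0.999, the widest interval of the 7. Without control 2 the estimate was -0.22, and without both PDN 3 and control 2 it was -0.115, with limma adjusted p-values of 1.00 in both fits. Among 4919 tested genes with a mean FPKM between 0.5 and 2 times that of Map3k7, 5.35% had a larger within-group SD.

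**Figure D2:**
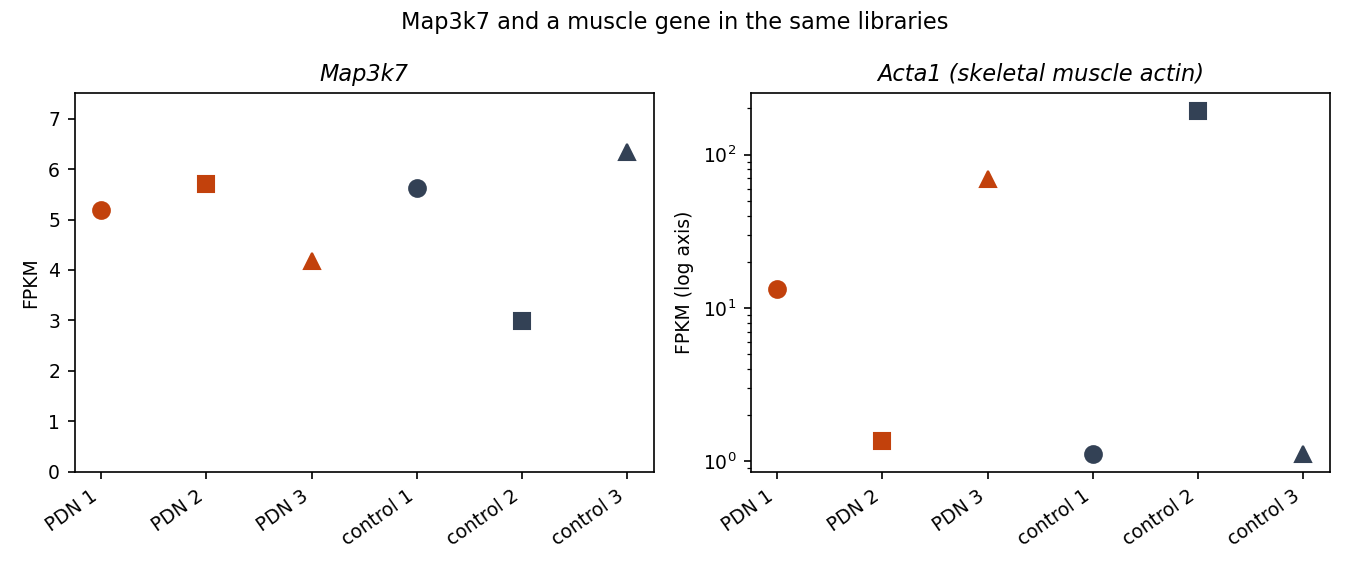
FPKM of Map3k7 (left, linear axis from 0) and of the muscle actin gene Acta1 (right, log axis) in the 3 PDN and 3 control libraries, 1 marker per library. PDN 3 and control 2, the libraries highest in Acta1 at 68.8 and 193 FPKM, had the lowest Map3k7 values at 4.17 and 3.00 FPKM.

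The libraries with the lowest Map3k7, PDN 3 and control 2, were those with the most muscle RNA. Of the other 6 genes, Traf6, Tab1 and Tab2 had their highest value in control 2 and, among PDN libraries, in PDN 3. Irak1 and Myd88 were lower in control 2 than in the other controls, while PDN 3 had the highest Irak1 and the middle Myd88 value of the PDN libraries. Irak4 had its middle value in PDN 3 among PDN libraries and in control 2 among controls. In the 4 libraries with less muscle RNA, Map3k7 was at 5.18 and 5.70 FPKM in PDN and at 5.62 and 6.34 FPKM in control rats. The part of muscle RNA in the Map3k7 values was not tested.

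**Figure D3:**
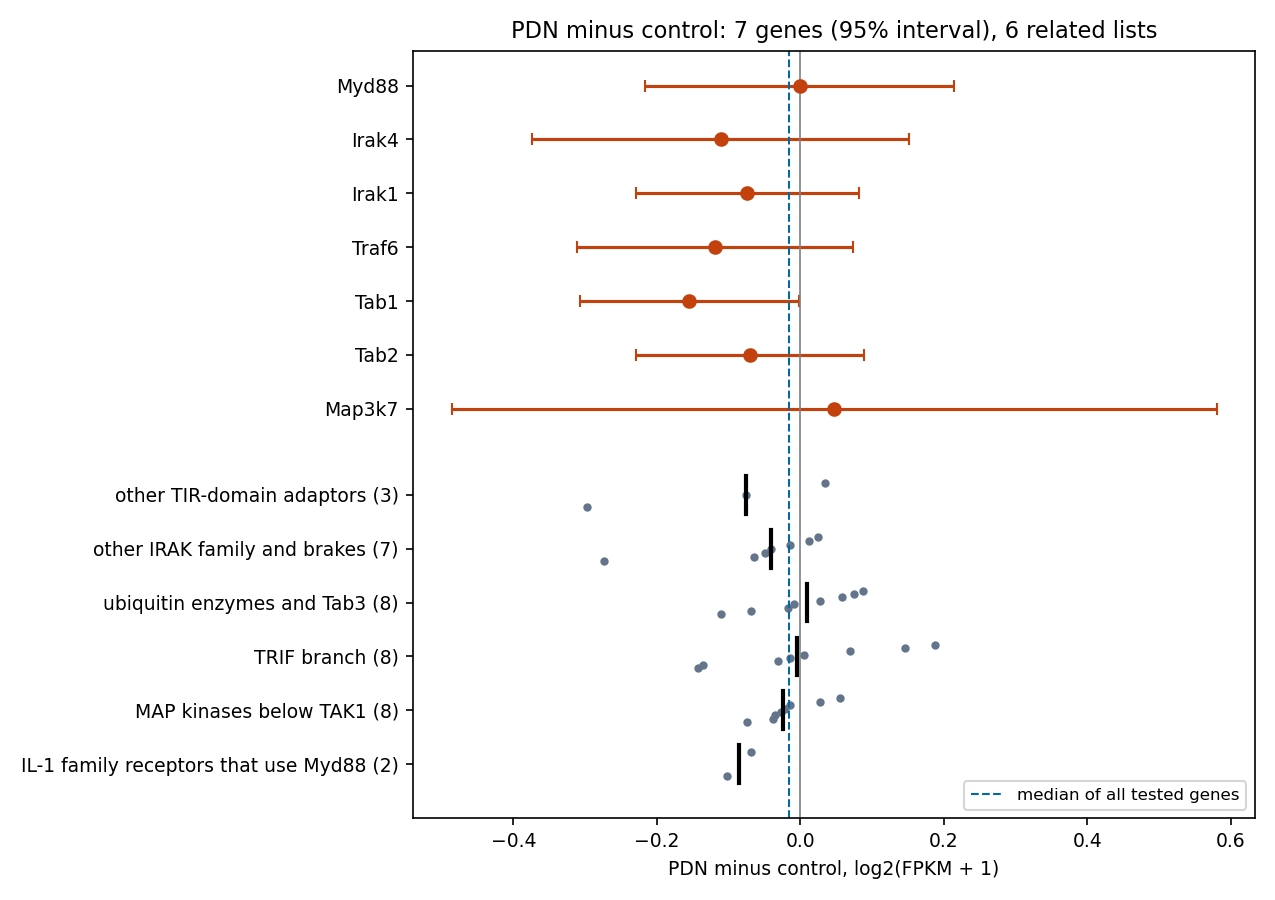
PDN minus control differences in log2(FPKM + 1), as points with 95% intervals for the 7 genes and, below, as dots for each tested gene of 6 related lists with the list median as a black bar and the number of tested genes in brackets. The dashed line is the median of all tested genes at -0.016. The intervals of 6 genes include 0, and that of Tab1 ends at -0.0019.

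Ratios of 2 genes inside a library do not depend on how libraries are scaled, and 3 such ratios were compared. The Tab1 to Tab2 ratio was 0.684, 0.646 and 0.650 in PDN libraries and 0.706, 0.682 and 0.729 in control libraries. PDN 1 exceeded control 2 by a small margin, and PDN 2 and PDN 3 lay below all controls. The difference of log2 ratios was -0.10 (SD 0.045 over PDN libraries and 0.048 over control libraries), with an exact two-sided permutation p of 0.2 and 0.6 after Benjamini-Hochberg adjustment over the 3 ratios. With 3 rats against 3, the smallest p this test can give is 0.1.

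The Irak1 to Irak4 ratio averaged 7.13 ± 0.545 in PDN libraries and 6.86 ± 1.36 in control libraries (SD, n = 3 each, exact permutation p of 0.8), so Irak1 RNA was several-fold above Irak4 RNA in either group. The Map3k7 to Traf6 ratio averaged 0.705 ± 0.165 in PDN libraries and 0.636 ± 0.235 in control libraries (SD, n = 3 each, exact permutation p of 0.7), and its lowest value, 0.369, was in control 2. The groups overlapped for all 3 ratios. A sum over Tab1, Tab2 and Tab3, a further TAK1 partner gene, was not planned. The level of this sum was 24.6 to 26.2 FPKM in PDN and 25.9 to 27.4 FPKM in control libraries. This was 4.36 to 6.30 times the Map3k7 level in PDN libraries and 4.09 to 9.15 times in control libraries, with the highest multiple in control 2.

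**Figure D4:**
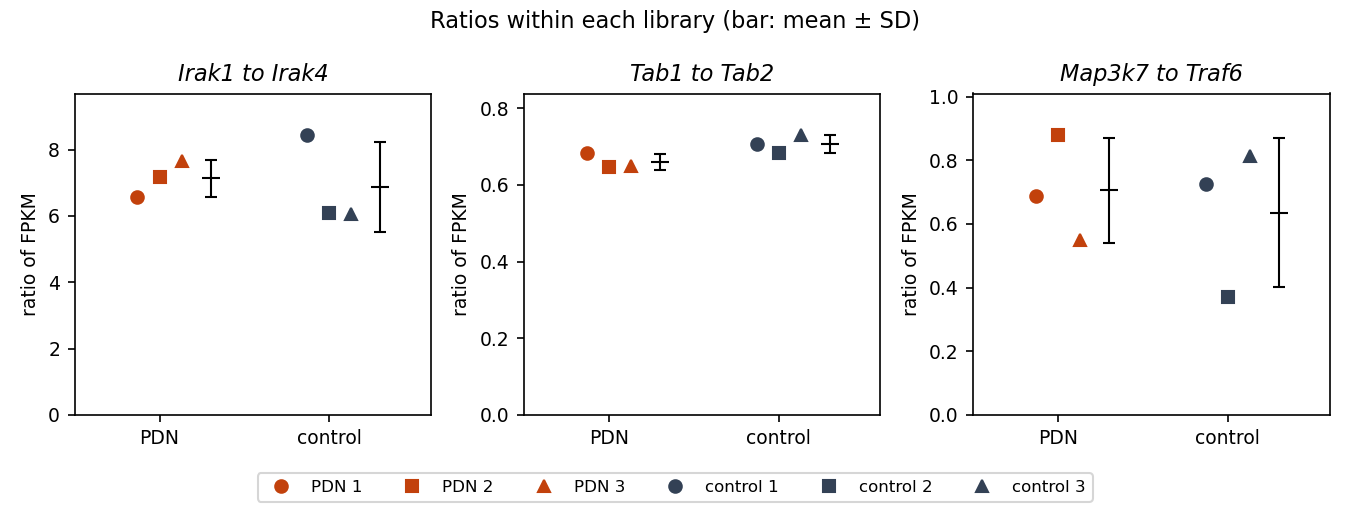
Ratios of FPKM inside each library for Irak1 to Irak4, Tab1 to Tab2 and Map3k7 to Traf6, with PDN left of control and axes from 0. Markers are libraries and bars give mean ± SD (n = 3 each). The groups overlap in each panel.

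The genes around these 7 in the pathway were read from 6 lists of 42 genes, of which 41 were found and 36 were tested. None of the 36 passed the adjusted threshold in limma, and 0 had an unadjusted p under 0.05, where 4.72% of all tested genes did. Estimates were lower in PDN for 23 and higher for 13, with a median log2 fold change of -0.019. The lists are described below by role, and each named gene is the most abundant of its list unless it is said to have been chosen after its values were seen.

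Among the other TIR-domain adaptors, 3 of 4 were tested and 2 had lower estimates. Sarm1, whose protein breaks down NAD and drives axon degeneration, was the most abundant at 32.8 ± 2.64 FPKM in PDN and 32.0 ± 2.31 FPKM in controls (SD, n = 3 each). Tirap, which bridges TLR4 to MyD88, was at 2.37 ± 0.213 FPKM in PDN and 2.55 ± 0.291 FPKM in controls, a level near that of Myd88 itself. Ticam2, which bridges TLR4 to TRIF, averaged 0.271 FPKM in PDN and 0.288 FPKM in controls and stayed under the filter on low values. Pik3ap1, which encodes the adaptor BCAP, was at 0.948, 1.13 and 1.70 FPKM in PDN libraries and at 1.85, 1.70 and 1.68 FPKM in control libraries. PDN 3 lay within the control range and PDN 1 and PDN 2 below it. Its difference of -0.30 ± 0.14 (SE) on the log2 scale was the largest in absolute size of the 36 tested genes, with an unadjusted p of 0.0652, the smallest of the 36, and a limma adjusted p of 0.999. Tirap, Ticam2 and Pik3ap1 were chosen after their values were seen.

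Among the other IRAK genes and the brakes on the pathway, 7 of 8 were tested, 5 with lower and 2 with higher estimates, with a median of -0.041. Tollip, whose protein restrains IRAK1, was at 41.2 ± 1.08 FPKM in PDN and 42.4 ± 0.996 FPKM in controls (SD, n = 3 each), more abundant than any of the 7 genes. Irak3, which encodes an inhibitory member of the kinase family, was at 2.25 ± 0.305 FPKM in PDN and 2.35 ± 0.156 FPKM in controls, and was chosen after its values were seen. Tnfaip3, the gene of the deubiquitinating enzyme A20, likewise chosen, had the largest absolute estimate of this list at -0.27 ± 0.14 (SE), with an unadjusted p of 0.0922 and a limma adjusted p of 0.999.

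Among the ubiquitin enzymes and Tab3, 8 of 9 were tested, 4 with lower and 4 with higher estimates, with a median of 0.0089. Ube2n, which encodes the ubiquitin-conjugating enzyme that works with TRAF6, was at 71.6 ± 2.91 FPKM in PDN and 75.0 ± 0.833 FPKM in controls (SD, n = 3 each), and its limma adjusted p was 0.999. In the TRIF branch all 8 genes were tested, 4 lower and 4 higher, with a median of -0.0043. Tbk1, which encodes a kinase of that branch, was at 15.4 ± 1.16 FPKM in PDN and 15.6 ± 0.147 FPKM in controls.

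The MAP kinase genes below TAK1 had 6 of 8 lower estimates and a median of -0.024, and Map2k4, a kinase that activates JNK, was at 72.7 ± 1.68 FPKM in PDN and 74.5 ± 1.01 FPKM in controls (SD, n = 3 each). Of the receptor genes of the interleukin-1 family, 2 of 5 were tested and both had lower estimates. Il1rap, which encodes an accessory chain of this receptor family, was at 7.13 ± 1.42 FPKM in PDN and 7.66 ± 0.642 FPKM in controls.

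For 6 of the 7 genes, Tab1 aside, the gene whose profile over the 6 libraries was nearest, by the root mean square difference of centred log2(FPKM + 1) values, was looked up among 11892 candidates. Nearest to Myd88 was Cpox (0.012), to Irak4 Taco1 (0.029), to Irak1 Cpt2 (0.011), to Traf6 Megf9 (0.016), to Tab2 Lzts3 (0.0099) and to Map3k7 Tmem251 (0.129). On this absolute scale no candidate came as near to Map3k7, the most variable of the 7, as the nearest ones came to the other genes. With 6 libraries and so many candidates, near profiles occur without any relation between genes.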

How the data were processed

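The authors deposited 2 tables of 22536 genes. In one, each value is FPKM, per the file headers and name. Aligner, quantification tool, annotation and build: not given in the sources used here. Trizol-extracted total RNA went into strand-specific libraries, per the labels' protocols. The values of the second table, which the authors deposited under a name for read counts, were treated as a score: 54.7% to 55.1% of values above 1000 equalled FPKM times genomic span times 1 constant per library (relative tolerance 0.001), and none exceeded it. Those constants would stand for 51900000 to 62800000 fragments per library, the only measure of depth, so no counting interval was computed. For Myd88, Irak1, Traf6 and Map3k7 that table repeats FPKM and is no independent measure. For Tab1 it held 31.7% to 32.2% of the same product, nearly FPKM times a constant, and is no independent measure either. The share was 91.1% to 95.0% for Tab2 and 68.2% to 73.7% for Irak4.

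The filter kept genes that reached an FPKM of 1 in 3 or more libraries. Values were analysed as log2(FPKM + 1) by limma 3.58.1 (R 4.3.3) with the group as the only term, a trended prior variance and Benjamini-Hochberg adjustment over all tested genes. Ratios were tested by exact permutation in scipy 1.17.1. The fit was tested on simulated data with planted changes larger than any estimate of the 7 genes. That simulation does not show whether differences of their size could be found. The genes, lists and tests were chosen with earlier results of these data known. Named are all 7 genes, the most abundant gene of each list and list members with an unadjusted p under 0.05, of which there were 0. Tirap, Ticam2, Pik3ap1, Irak3, Tnfaip3 and the named macrophage and fibroblast markers fall outside this rule and were chosen after their values were seen. Tab3 also falls outside it, and its sum with Tab1 and Tab2 was not among the planned results. The planned Myd88 to Ticam1 ratio was not analysed here, and the nearest profile to Tab1 is not reported here. Alternatives changed the pseudocount, filter, scaling, variance model, weights, replicate block, table and libraries.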

Additional observations from a re-analysis of the deposited data

How the results depend on the processing

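The 7 genes gave 0 calls in each of the 16 alternative fits, and their median log2 fold change stayed between -0.115 and -0.052. The count of 0 genes past the threshold over the whole table became 1 without the filter on low values, 1 with robust empirical Bayes, 2 in the table named for read counts and 9 without the muscle-rich libraries PDN 3 and control 2. Leaving out single libraries gave 0 to 6: 4 without PDN 1, 6 without PDN 3, 3 without control 1, 2 without control 3, and 0 without PDN 2 or control 2. The estimate of Myd88 turned positive with median-of-ratios scaling (0.015), upper-quartile scaling (0.012), array weights (0.0039) and the table named for read counts (0.0042), and lay between -0.059 and 0.039 when single libraries were left out. That of Map3k7 turned negative with array weights (-0.016) and without PDN 3 and control 2 (-0.115), and lay between -0.22 and 0.22 without single libraries. The log2 difference of the Irak1 to Irak4 ratio, 0.07, lay between -0.010 and 0.23 without single libraries, and that of the Map3k7 to Traf6 ratio, 0.20, between -0.15 and 0.42. The cause of these changes was not tested. Estimates of Irak1, Irak4, Traf6, Tab1 and Tab2 kept their sign throughout. The replicate numbers were not taken as pairs: deviations of same-numbered libraries correlated at 0.17, -0.12 and -0.086, and only PDN 1 correlated best with its own number. With the replicate block, 0 genes of the table passed and the unadjusted p of Tab1 was 0.0619. The unadjusted p of Tab1 was also above 0.05 with both other scalings, the stricter filter, robust empirical Bayes, the table named for read counts, without PDN 3 and control 2 together, and with each single library left out. In limma it stayed under 0.05 with a pseudocount of 0.1 (0.0428), without the filter on low values (0.0384) and with array weights (0.0475). Fits without a library rest on fewer rats. Depth behind single values is unknown, so counting error is not separated from differences between rats.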
